A study of Mus musculus with 14 samples.

Results

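Cadherins, catenins and the proteins of desmosomes were described as a group of 45 genes among the 19938 genes measured. The genes were chosen by symbol: every numbered cadherin except Cdh5, the desmogleins Dsg1 to Dsg4, the desmocollins Dsc1 to Dsc3, the plakophilins Pkp1 to Pkp4, the alpha, beta and delta catenin genes except Ctnnbip1, and Jup, Dsp, Ppl and Evpl. A mouse reference table held 47 genes of these names, and Dsc1 and Dsg1a had no probe set with a single gene symbol. The 45 genes comprised 5 type I and 12 type II classical cadherins, 5 other cadherins, 9 catenin genes, 7 desmosomal cadherins and 7 plaque proteins. Ctnnal1 and Ctnnbl1 came in by symbol, and Ctnnbl1 encodes a protein of pre-mRNA splicing.

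Expression was measured in C57BL/6 mouse material on 14 microarrays, with 2 arrays in each of 7 groups. Differentiated gallbladder organoids had spent 2 weeks in medium lacking nicotinamide, noggin and R-spondin 1, and were set against gallbladder organoids in the complete medium. Liver and small intestine organoids and tissue of the same 3 organs completed the groups. All organoids grew in Matrigel, a basement membrane gel, and the complete medium held EGF, FGF10, HGF, nicotinamide, R-spondin 1 and noggin with B27, N2 and N-acetylcysteine. Each value is the log2 signal of a probe set, and a difference is the mean of one group minus that of another in log2 units. Calls were made in limma, fitted over all genes and arrays, where the adjusted p fell under 0.05. The labels do not say that replicates were separate animals or cultures, so p-values measure the spread between these samples, which may be technical. That spread was estimated for each gene over all 7 groups together. No detection calls were used and the noise floor is unknown, so a low signal cannot be read as absence. With 2 arrays against 2, an exact permutation test cannot give a 2-sided p below 0.333.

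Cadherins bind the same kind of molecule on the neighbouring cell and hold epithelial sheets together. In adherens junctions the tails of classical cadherins bind beta-catenin and delta-type catenins, and alpha-catenin links them to actin. In desmosomes, desmogleins and desmocollins bind plakoglobin and plakophilins, and desmoplakin ties them to keratin filaments. Simple epithelia such as those of gut and bile duct use Dsg2 and Dsc2, whereas Dsg1, Dsg3, Pkp1, envoplakin and periplakin are best known from stratified epithelia. Beta-catenin also carries the Wnt signal that R-spondin 1 strengthens.

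Replicate arrays were closer in organoids than in tissue. The pooled SD of the 45 genes between replicates was 0.0652 to 0.115 for organoids, against 0.274 to 0.392 for tissue. In the fit all groups shared a gene's spread. On average, organoid differences were therefore set against more spread than their replicates showed, and tissue differences against less. The organoids carried the epithelial label. The mean of 7 epithelial markers was 12.52 to 13.05 on the organoid arrays, and those of 6 smooth muscle, 6 fibroblast and 6 endothelial markers were 6.24 to 7.08. Cdh5, the endothelial cadherin left out of the gene group, read 6.35 to 6.82 on organoid arrays and 8.66 to 10.89 on tissue arrays. Gallbladder tissue read high for hepatocyte genes. The mean of 7 hepatocyte markers was 13.11 and 14.10 in gallbladder tissue replicates 1 and 2, against 14.21 and 14.19 in liver tissue. The mean of 5 pancreatic acinar markers was 7.13 in small intestine tissue replicate 1 and 13.13 in replicate 2.

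Cdh17, Cdh13, Cdh6 and Cdh2 had the widest range, with over 4 log2 units between their highest and lowest group mean. The range was at least 2 in 11 genes and under 1 in 23, with a median of 0.95. Of the 45 genes, 40 were called in at least 1 of 10 comparisons between groups. Cdh7, Cdh8, Cdh12, Cdh18 and Cdh26 were the 5 called in none, and Cdh17 was called in 9.

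**Figure D1:**
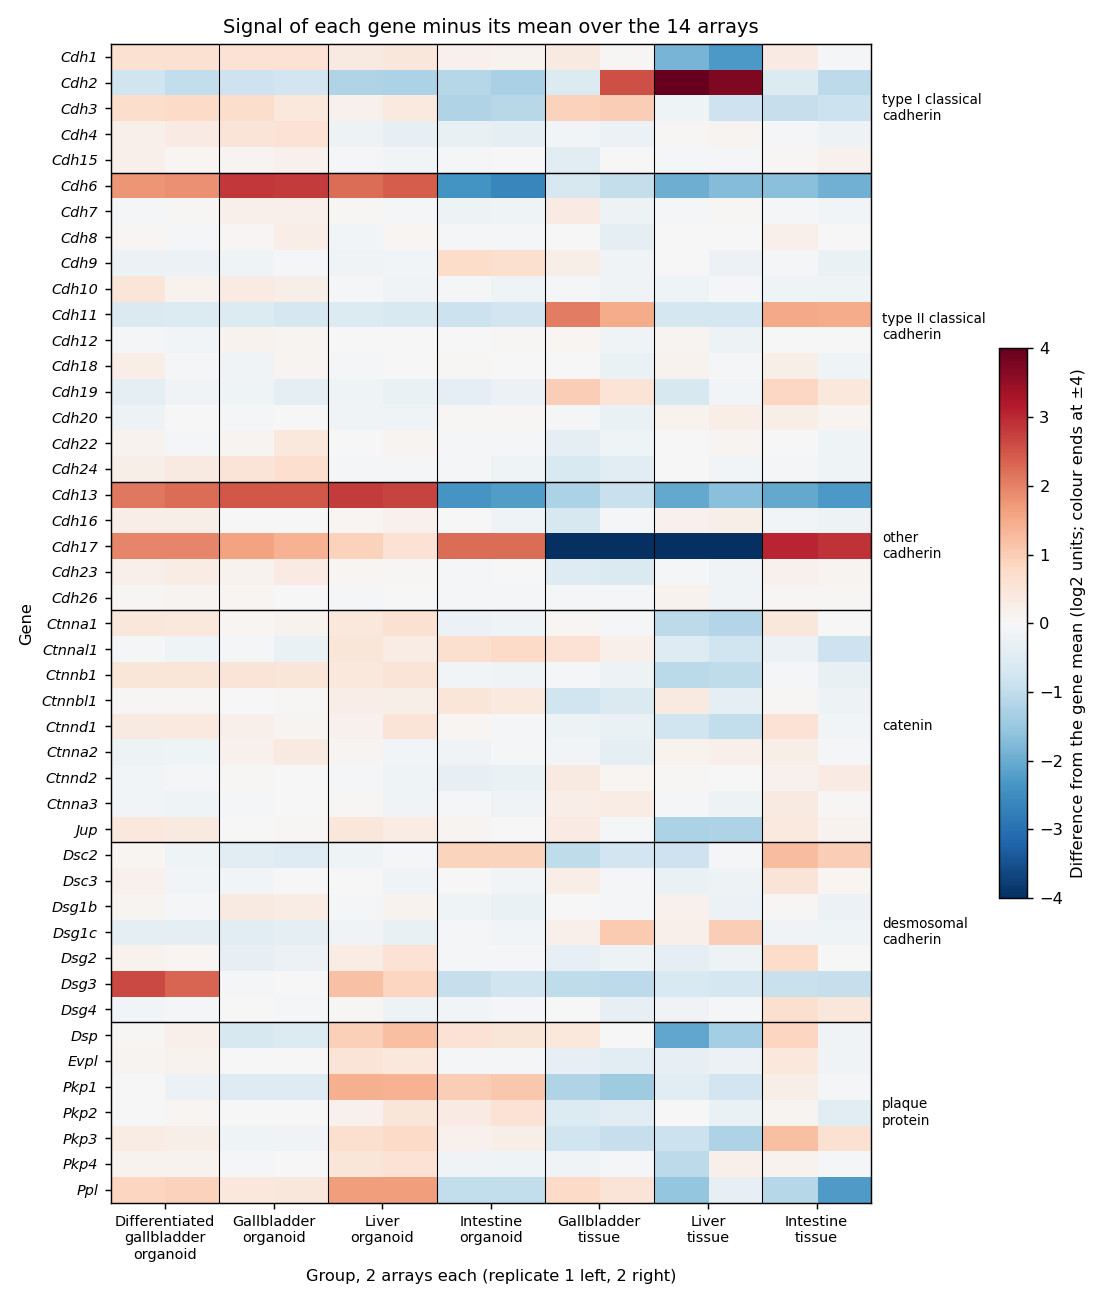
Log2 signal of the 45 genes (rows, by role) on the 14 arrays (columns, 2 per group), as the difference from each gene's mean over all arrays, with colours ending at ±4. Cdh6 and Cdh13 are high in gallbladder and liver organoids, Cdh17 is low in gallbladder and liver tissue, and Cdh2 is high in liver tissue and in gallbladder tissue replicate 2.

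In differentiated against undifferentiated gallbladder organoids, Dsg3 rose and Cdh6 fell. These 2 of 45 genes (4.44%) compare with 4.73% of all genes called, and the same number was called without any 1 array. A fit to the 4 arrays compared alone called 17 of the 45, against 26.8% of all genes in that fit. The median difference was 0.029 over the 45 genes and -0.044 over all genes.

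Between gallbladder and liver organoids 8 of the 45 genes were called (17.8%), against 12.7% of all genes (6.17% higher and 6.52% lower). That count was 4 without gallbladder organoid replicate 1 or liver organoid replicate 2, 5 without gallbladder organoid replicate 2, and 13 without either small intestine tissue array. Between gallbladder and small intestine organoids 17 were called (37.8%), against 35.6% of all genes, and 11 without gallbladder organoid replicate 2 or small intestine organoid replicate 2. Between liver and small intestine organoids 11 were called (24.4%), against 26.5% of all genes. These shares were not tested against those of all genes. The gallbladder against liver share depended on single arrays, and no excess is read from it.

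Against tissue of the same organ, 20 of 45 genes were called in gallbladder organoids (44.4%, against 47.9% of all genes), and 11 without gallbladder organoid replicate 2. In liver organoids 22 were called (48.9%, against 44.9% of all genes). Of these 18 were higher than in liver tissue, which is 40% of the 45 genes, against 26.7% of all genes called higher. In small intestine organoids 12 were called (26.7%, against 35.8% of all genes). The median difference of the 45 genes was 0.33 in gallbladder, 0.15 in liver and -0.14 in small intestine, and that of all genes was 0.17, 0.0046 and -0.018.

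Between tissues, 24 genes were called for gallbladder against liver (53.3%, against 48.1% of all genes), of which 14 were higher in gallbladder (31.1%, against 20.7% of all genes). Among all genes 27.4% were lower in gallbladder. For gallbladder against small intestine 17 were called (37.8%, against 45% of all genes), and 11 without small intestine tissue replicate 1. For liver against small intestine 17 were called (37.8%, against 37.5% of all genes), of which 16 were lower in liver (35.6%, against 18.8% of all genes). The genes called lower in liver tissue included Cdh1, Jup, Dsp, Ctnna1 and Ctnnb1 in both comparisons.

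Cdh1 encodes E-cadherin, the main cadherin of epithelial adherens junctions. Its signal was 13.27 and 13.25 in differentiated gallbladder organoids, 13.23 and 13.23 in gallbladder organoids, 13.00 and 13.09 in organoids of the liver, and 12.83 and 12.78 in those of the small intestine. Tissue arrays read 13.00 and 12.68 in gallbladder tissue, 10.80 and 10.37 in liver tissue and 12.97 and 12.58 in small intestine tissue. All arrays but those of liver tissue lay between 12.58 and 13.27, and both liver tissue arrays lay below them. Liver organoids exceeded liver tissue by 2.46 ± 0.17 (SE, adjusted p = 1.7e-06), which is 5.51-fold. Gallbladder tissue exceeded liver tissue by 2.26 ± 0.17 (SE, adjusted p = 5.88e-06), and liver tissue was below small intestine tissue by a difference of -2.19 ± 0.17 (SE, adjusted p = 4.06e-06). In bulk samples, fewer cells of a type and less RNA per cell cannot be told apart. Beside this, the mean of the epithelial markers was 13.04 and 13.05 in liver organoids and 8.97 and 8.55 in liver tissue. In the organoids 7 of 7 epithelial markers were called higher, against 26.7% of all genes. The part of these cells in the difference was not tested. Withdrawal of the factors left Cdh1 at 0.03 ± 0.17 (SE, adjusted p = 0.97), gallbladder organoids differed from gallbladder tissue by 0.39 ± 0.17 (SE, adjusted p = 0.0817) and from liver organoids by 0.19 ± 0.17 (SE, adjusted p = 0.533), and these differences were not called.

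Cdh2 encodes N-cadherin, which hepatocytes carry beside E-cadherin. Its signal was 6.75 and 6.58 in differentiated gallbladder organoids, 6.74 and 6.78 in gallbladder organoids, 6.33 and 6.30 in organoids of the liver, and 6.42 and 6.26 in those of the small intestine. The tissues had 7.01 and 10.14 in gallbladder tissue, 11.61 and 11.29 in liver tissue and 6.99 and 6.51 in small intestine tissue. The organoids, small intestine tissue and gallbladder tissue replicate 1 read 7.01 or less, and the other gallbladder tissue array lay between these and liver tissue. Liver organoids were below liver tissue by a difference of -5.13 ± 0.72 (SE, adjusted p = 0.000202), a 35.1-fold gap, and liver tissue exceeded small intestine tissue by 4.69 ± 0.72 (SE, adjusted p = 0.000494). Gallbladder tissue differed from liver tissue by -2.87 ± 0.72 (SE, adjusted p = 0.0085), by -1.31 without gallbladder tissue replicate 1 and by -4.44 without replicate 2. It was not called in a fit to the 4 arrays compared alone (adjusted p = 0.119). Gallbladder organoids differed from gallbladder tissue by -1.81 ± 0.72 (SE, adjusted p = 0.0611), by -3.38 without gallbladder tissue replicate 1 (adjusted p = 1.56e-06) and by -0.25 without replicate 2 (adjusted p = 0.338). Gallbladder tissue differed from small intestine tissue by 1.82 ± 0.72 (SE, adjusted p = 0.0635), by 3.38 without gallbladder tissue replicate 1 (adjusted p = 1.51e-06) and by 0.26 without replicate 2. The gallbladder tissue array with more Cdh2 was also the one with the higher mean of the 7 hepatocyte markers (14.10 in replicate 2 and 13.11 in replicate 1). The part of hepatocyte RNA in these differences was not tested.

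Cdh3 encodes P-cadherin, found in basal and some glandular epithelia. Its signal was 8.85 and 8.94 in differentiated gallbladder organoids, 8.88 and 8.58 in gallbladder organoids, 8.34 and 8.54 in organoids of the liver, and 6.98 and 7.06 in those of the small intestine. Signals in tissue were 9.08 and 9.14 in gallbladder tissue, 8.0 and 7.33 in liver tissue and 7.23 and 7.31 in small intestine tissue. Gallbladder tissue was the highest group, and both small intestine groups were low. Gallbladder organoids exceeded small intestine organoids by 1.71 ± 0.19 (SE, adjusted p = 7.51e-05) and liver organoids exceeded them by 1.42 ± 0.19 (SE, adjusted p = 0.000299). Gallbladder tissue exceeded small intestine tissue by 1.84 ± 0.19 (SE, adjusted p = 3.88e-05) and liver tissue by 1.44 ± 0.19 (SE, adjusted p = 0.000223). Cdh4, or R-cadherin, was highest in gallbladder organoids at 8.11 and 8.18, against 7.42 and 7.29 in liver organoids, 7.32 and 7.25 in small intestine organoids and 7.51 and 7.39 in gallbladder tissue. The groups did not overlap, and gallbladder organoids exceeded these 3 groups by 0.79 ± 0.10 (SE, adjusted p = 0.000947), 0.86 ± 0.10 (SE, adjusted p = 0.000103) and 0.69 ± 0.10 (SE, adjusted p = 0.000352).

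Cdh6 encodes K-cadherin, a type II classical cadherin of the kidney and of developing epithelia. Its signal was 11.11 and 11.16 in differentiated gallbladder organoids, 12.15 and 12.13 in gallbladder organoids, 11.58 and 11.76 in organoids of the liver, and 6.95 and 6.74 in those of the small intestine. On the tissue arrays it was 8.71 and 8.39 in gallbladder tissue, 7.39 and 7.61 in liver tissue and 7.67 and 7.41 in small intestine tissue. Gallbladder and liver organoids stood far above every other group, and the differentiated arrays lay below the undifferentiated ones without overlap. Withdrawal of the factors gave a difference of -1.0 ± 0.15 (SE, adjusted p = 0.00326), a 2.01-fold fall. Gallbladder organoids exceeded small intestine organoids by 5.30 ± 0.15 (SE, adjusted p = 7.5e-09), which is 39.4-fold, and liver organoids exceeded them by 4.83 ± 0.15 (SE, adjusted p = 1.1e-08). Gallbladder organoids exceeded gallbladder tissue by 3.59 ± 0.15 (SE, adjusted p = 9.64e-08) and liver organoids exceeded liver tissue by 4.17 ± 0.15 (SE, adjusted p = 3.09e-08), whereas small intestine organoids were below small intestine tissue by a difference of -0.70 ± 0.15 (SE, adjusted p = 0.0039). Gallbladder tissue in turn exceeded liver tissue by 1.05 ± 0.15 (SE, adjusted p = 0.000298) and small intestine tissue by 1.01 ± 0.15 (SE, adjusted p = 0.000354). Between gallbladder and liver organoids the difference of 0.47 ± 0.15 was not called (adjusted p = 0.0628). It was called in a fit to those 4 arrays alone (adjusted p = 0.0067), without either gallbladder tissue array (0.0335 each) and without either small intestine tissue array (0.0457 each).

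The promoter of Cdh6 is shown because this gene was higher in gallbladder and liver organoids than in small intestine organoids and fell on withdrawal. RefSeq windows of 250 bases before to 50 after the annotated start (GRCm38.p6) were found for 23 of the 45 genes, 30 windows in all. The Cdh6 window is chr15:13173626-13173925 on the minus strand, and no searched motif marked any base in it:
Cdh6: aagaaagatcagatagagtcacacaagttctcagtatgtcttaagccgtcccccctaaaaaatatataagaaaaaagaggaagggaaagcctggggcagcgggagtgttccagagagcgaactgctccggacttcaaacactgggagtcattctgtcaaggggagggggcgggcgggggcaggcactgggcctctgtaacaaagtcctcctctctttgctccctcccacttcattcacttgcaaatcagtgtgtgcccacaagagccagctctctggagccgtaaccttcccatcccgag
The motifs, searched on both strands, were CAGGTG, an E-box bound by Snail and ZEB repressors, GGAATG, bound by TEAD factors, and AACCNGTT, bound by Grainyhead-like factors. They are in 20.2%, 14.7% and 2.09% of all 32841 windows. None of the 3 letter strings is in the Cdh6 window, which says nothing about binding elsewhere. Its GC content of 53% is close to the median of 52.7% over all windows. In the same assembly Cdh6 is followed by Cdh9, Cdh10 and Cdh12, with no other annotated protein-coding gene between them. Cdh9 read 5.39 and 5.29 in small intestine organoids, against 4.38 to 4.89 on all other arrays, and small intestine organoids exceeded their tissue by 0.84 ± 0.14 (SE, adjusted p = 0.000972). Cdh10 read 6.12 and 5.77 in differentiated gallbladder organoids and 5.96 and 5.87 in gallbladder organoids, against 5.45 to 5.58 on the other arrays. Gallbladder organoids exceeded small intestine organoids in Cdh10 by 0.42 ± 0.12 (SE, adjusted p = 0.0207), a call lost without any 1 of the 4 arrays compared (adjusted p = 0.0543 to 0.128). They exceeded gallbladder tissue by 0.38 ± 0.12 (SE, adjusted p = 0.0233), which was lost in a fit to those 4 arrays alone (adjusted p = 0.054), without gallbladder organoid replicate 1 (0.123) or 2 (0.0631) and without gallbladder tissue replicate 2 (0.0842). Cdh12 read 4.64 to 4.96 over the 14 arrays.

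Other type II cadherins marked tissue. Cdh11, the cadherin of mesenchymal cells, read 6.21 and 6.11 in gallbladder organoids, against 8.82 and 8.26 in gallbladder tissue, a difference of -2.38 ± 0.15 (SE, adjusted p = 1.74e-06). It read 5.93 and 6.01 in small intestine organoids, against 8.28 and 8.27 in small intestine tissue, a difference of -2.31 ± 0.15 (SE, adjusted p = 3.91e-06). Liver tissue, at 6.08 and 6.07, was as low as the organoids. Further probe sets named Cdh11 together with other genes and were left out of the calls. The brightest of them read 11.05 and 11.02 in liver tissue, against 11.72 and 11.88 in liver organoids. In gallbladder tissue it read 12.47 and 12.40, against 11.79 and 11.72 in gallbladder organoids. Cdh19, known from the Schwann cell lineage, read 4.48 and 4.27 in gallbladder organoids, against 5.63 and 5.19 in gallbladder tissue (-1.04 ± 0.21, SE, adjusted p = 0.00283), and 4.28 and 4.43 in small intestine organoids, against 5.48 and 5.07 in small intestine tissue (-0.92 ± 0.21, SE, adjusted p = 0.00649). Beside these, 6 of 6 fibroblast and 6 of 6 smooth muscle markers were lower in the organoids of both organs than in tissue, against 15.2% of all genes called lower in gallbladder and 15.6% in small intestine. The mean of the smooth muscle markers was 6.69 to 7.02 in all organoid groups and 7.83 and 7.90 in liver tissue. It was 13.20 and 12.78 in gallbladder tissue and 11.41 and 11.31 in small intestine tissue. For the fibroblast markers the mean was 6.63 to 7.08 in all organoid groups and 10.75 and 10.58 in gallbladder tissue. Unlike Cdh11, it was alike in liver tissue (9.11 and 9.07) and small intestine tissue (9.11 and 9.01). Of 5 neural and glial markers measured, 2 were called higher in gallbladder organoids than in tissue, with a median difference of 0.32, against 32.7% of all genes called higher and a median of 0.17. The part of these cells in the differences was not tested.

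Cdh24 was, like Cdh6, highest in gallbladder organoids. It read 8.07 and 8.22 there, against 6.93 and 7.12 in gallbladder tissue and 7.45 and 7.37 in small intestine organoids. The groups did not overlap, with differences of 1.12 ± 0.11 (SE, adjusted p = 2.96e-05) and 0.73 ± 0.11 (SE, adjusted p = 0.000562). The second Cdh24 probe set, which had the lower mean, read 7.58 and 7.68 in gallbladder organoids, against 7.57 and 7.30 in gallbladder tissue, so the probe sets disagreed. Cdh7, Cdh8, Cdh10, Cdh12, Cdh18, Cdh20 and Cdh22, and the type I muscle cadherin Cdh15, each ranged over less than 1 log2 unit between groups.

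**Figure D2:**
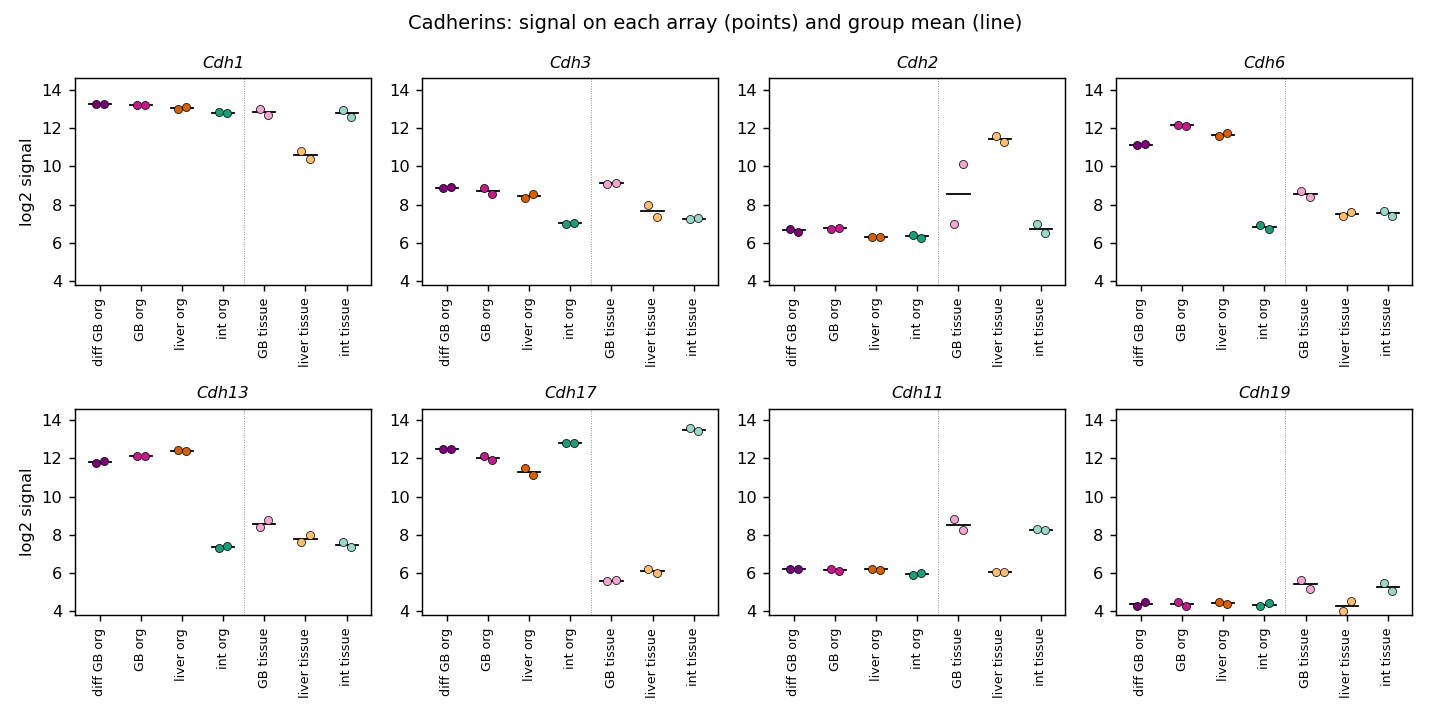
Log2 signal of 8 cadherins on each array (points, 2 per group) with the group mean (line), for 4 organoid groups left of the dotted line and 3 tissues right of it. Cdh6 and Cdh13 are above 11 in gallbladder and liver organoids and below 9 elsewhere, and Cdh17 is below 6.3 in gallbladder and liver tissue.

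Cdh17, or liver-intestine cadherin, lacks the catenin-binding tail and in adult mice is known from the intestinal epithelium. Its signal was 12.49 and 12.51 in differentiated gallbladder organoids, 12.15 and 11.93 in gallbladder organoids, 11.47 and 11.14 in organoids of the liver, and 12.78 and 12.80 in those of the small intestine. In tissue it was 5.59 and 5.63 in gallbladder tissue, 6.22 and 5.99 in liver tissue and 13.58 and 13.43 in small intestine tissue. Every organoid array was above 11, and gallbladder and liver tissue lay near the bottom of the gene's range. Gallbladder organoids exceeded gallbladder tissue by 6.43 ± 0.13 (SE, adjusted p = 5.32e-09), an 86-fold gap, and liver organoids exceeded liver tissue by 5.20 ± 0.13 (SE, adjusted p = 8.02e-09), which is 36.7-fold. Small intestine organoids were below small intestine tissue by a difference of -0.72 ± 0.13 (SE, adjusted p = 0.00202). The change on culture differed between gallbladder and small intestine by 7.14 (adjusted p = 7.6e-08). Among organoids, gallbladder was below small intestine with a difference of -0.75 ± 0.13 (SE, adjusted p = 0.00168) and liver was below small intestine with a difference of -1.49 ± 0.13 (SE, adjusted p = 1.76e-05). Gallbladder organoids differed from liver organoids by 0.73 ± 0.13 (SE, adjusted p = 0.00676), and this call was lost without gallbladder organoid replicate 1 (adjusted p = 0.0738) or liver organoid replicate 2 (0.0653). Differentiated organoids differed from undifferentiated ones by 0.46 ± 0.13 (SE, adjusted p = 0.0956), which was not called, and was called in a fit to those 4 arrays alone (adjusted p = 0.011).

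Other intestinal genes were set beside Cdh17. The enterocyte markers (7 genes) averaged 6.97 to 7.19 in gallbladder and liver organoids, against 12.30 and 12.17 in small intestine organoids. In gallbladder organoids 7 of 7 were lower than in small intestine organoids, with a median difference of -6.63, against 15.4% of all genes called lower, and the difference of Cdh17 was -0.75 ± 0.13. Of these 7, Vil1, the villin that bundles actin in microvilli, named after its values were seen, read 10.76 and 10.80 in gallbladder organoids and 11.57 and 11.72 in liver organoids, against 12.42 and 12.35 in small intestine organoids. Its difference from small intestine organoids was -1.61 ± 0.20 in gallbladder organoids (SE, adjusted p = 0.000145) and -0.74 ± 0.20 in liver organoids (SE, adjusted p = 0.019). Liver organoids exceeded liver tissue, at 6.55 and 7.01, by 4.86 ± 0.20 (SE, adjusted p = 6.03e-08). The intermicrovillar adhesion complex, in which the protocadherins Cdhr2 and Cdhr5 link the tips of intestinal microvilli to Myo7b, was also low. In gallbladder organoids 6 of its 6 genes were below small intestine organoids (median -4.81, against 15.4% of all genes called lower and a median of 0.11 over all genes), and in liver organoids 5 of 6 (median -3.87, against 12.2% and 0.05). Cdhr2 read 6.27 and 6.16 in gallbladder organoids, against 12.13 and 11.88 in small intestine organoids, a difference of -5.79 ± 0.14 (SE, adjusted p = 5.93e-09). On withdrawal Cdhr2 rose by 1.92 ± 0.14 (SE, adjusted p = 7.33e-05), with 8.22 and 8.05 in differentiated organoids. Cdh17 was high in every organoid group, and Cdhr2 was above 11 in small intestine organoids and tissue and below 9 elsewhere.

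Cdh13 encodes T-cadherin, which is held to the membrane by a lipid anchor and binds adiponectin. Its signal was 11.75 and 11.89 in differentiated gallbladder organoids, 12.13 and 12.15 in gallbladder organoids, 12.45 and 12.37 in organoids of the liver, and 7.30 and 7.42 in those of the small intestine. Tissue arrays read 8.40 and 8.76 in gallbladder tissue, 7.63 and 7.99 in liver tissue and 7.62 and 7.36 in small intestine tissue. As with Cdh6, gallbladder and liver organoids lay above 11 and the other groups below 9. Gallbladder organoids exceeded gallbladder tissue by 3.56 ± 0.16 (SE, adjusted p = 1.64e-07), liver organoids exceeded liver tissue by 4.60 ± 0.16 (SE, adjusted p = 2.31e-08), and gallbladder organoids exceeded small intestine organoids by 4.78 ± 0.16 (SE, adjusted p = 1.72e-08), which is 27.5-fold. Unlike Cdh6, it was not called on withdrawal. Gallbladder and liver organoids differed by -0.27 ± 0.16 (SE, adjusted p = 0.302), not called. The other members of this class, Cdh16 of the kidney, Cdh23 of the inner ear and Cdh26, read between 6.14 and 7.11 on all arrays. Of these, Cdh23 was 6.83 and 7.03 in gallbladder organoids, against 6.19 and 6.14 in gallbladder tissue (0.77 ± 0.10, SE, adjusted p = 0.000154).

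The change between tissue and organoid was then compared across organs with interaction terms. Of the 45 genes 24 changed differently in gallbladder and liver (53.3%, against 39.8% of all genes), 13 in gallbladder and small intestine (28.9%, against 36.6%), and 21 in liver and small intestine (46.7%, against 35.2%). Of these 21, 19 had the more positive change in liver (42.2% of the genes, against 19% of all genes). The change of Cdh1 was larger in liver than in small intestine by 2.43 ± 0.24 (SE, adjusted p = 3.69e-05), that of Ctnna1 by 2.07 ± 0.20 (3.26e-05), that of Jup by 1.83 ± 0.20 (7.48e-05) and that of Ctnnb1 by 1.45 ± 0.15 (4.88e-05). Gallbladder set against liver gave -2.07 ± 0.24 for Cdh1 (adjusted p = 0.000156), -1.55 ± 0.20 for Ctnna1 (0.000294), -1.72 ± 0.20 for Jup (0.000163) and -0.86 ± 0.15 for Ctnnb1 (0.00158). For these 4 genes the gain over tissue was larger in liver than in either other organ.

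**Figure D3:**
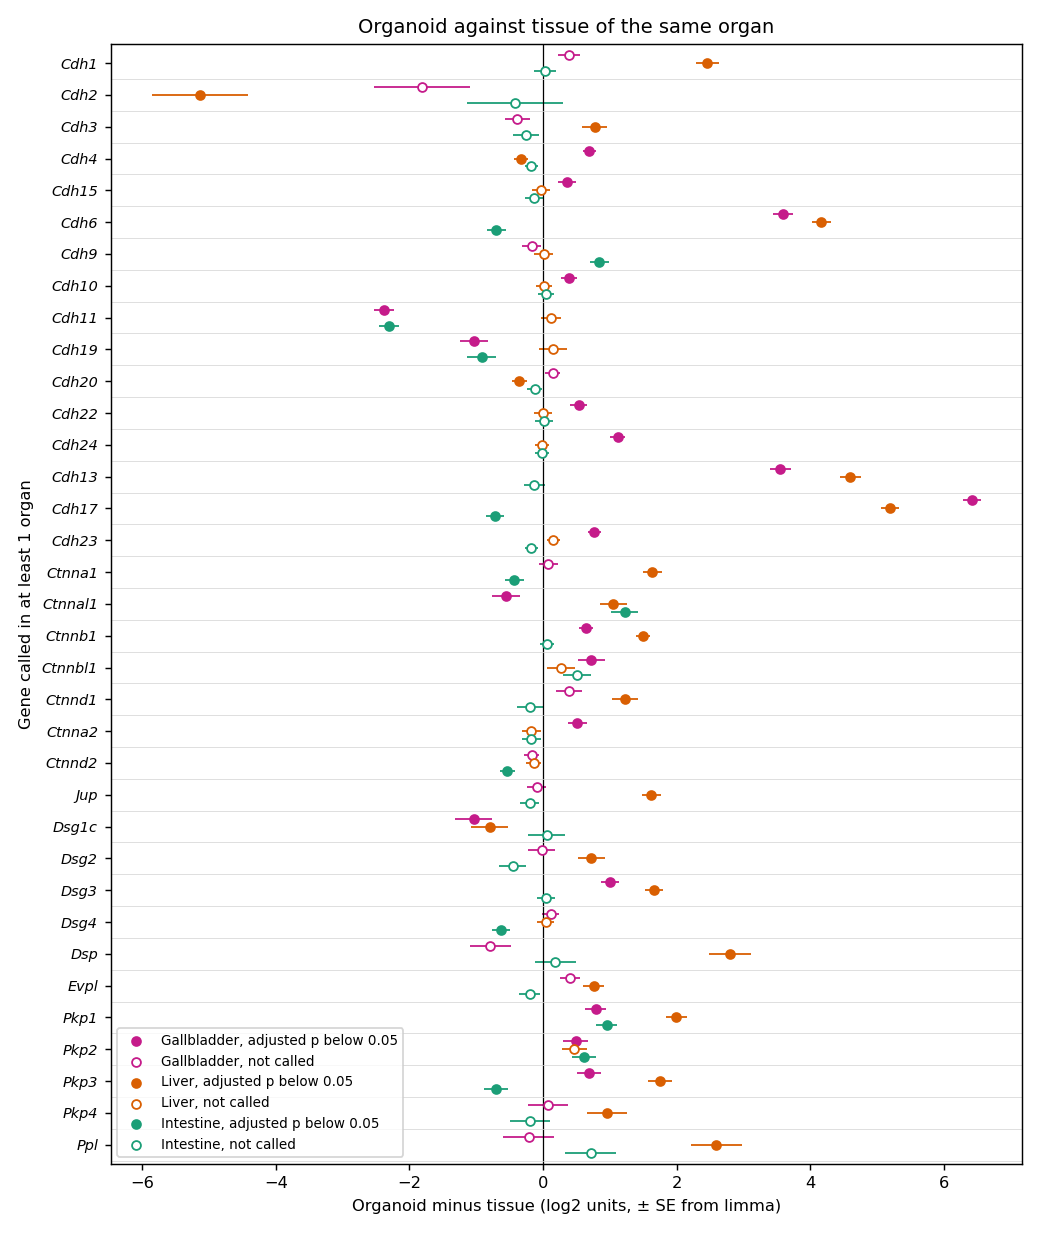
Organoid minus tissue of the same organ (x axis, log2 units, bars ± SE from limma) for the 35 genes called in at least 1 organ. Filled points passed an adjusted p of 0.05. Cdh6, Cdh13 and Cdh17 lie at 3.56 or more in gallbladder and liver and at or below 0 in small intestine, and Cdh1, Jup and Dsp stand apart from 0 in liver.

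Ctnnb1, beta-catenin, binds cadherin tails and is the Wnt effector. Its signal was 13.50 and 13.49 in differentiated gallbladder organoids, 13.54 and 13.51 in gallbladder organoids, 13.42 and 13.52 in organoids of the liver, and 12.91 and 12.89 in those of the small intestine. The tissues had 12.95 and 12.82 in gallbladder tissue, 11.94 and 12.004 in liver tissue and 12.97 and 12.71 in small intestine tissue. Differentiated and undifferentiated gallbladder organoids and liver organoids were above all other groups, and liver tissue was lowest. Gallbladder organoids exceeded small intestine organoids by 0.63 ± 0.10 (SE, adjusted p = 0.0011) and gallbladder tissue by 0.64 ± 0.10 (SE, adjusted p = 0.000749), and liver organoids exceeded liver tissue by 1.5 ± 0.10 (SE, adjusted p = 1.86e-06). Its transcript did not pass the test on withdrawal, with a difference of -0.03 ± 0.10 (SE, adjusted p = 0.937).

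Ctnna1, alpha-E-catenin, links beta-catenin to actin. It read 12.19 and 12.13 in differentiated gallbladder organoids, 11.79 and 11.87 in gallbladder organoids, 12.15 and 12.33 in liver organoids, 11.49 and 11.56 in small intestine organoids, 11.82 and 11.68 in gallbladder tissue, 10.67 and 10.54 in liver tissue and 12.18 and 11.74 in small intestine tissue. Ctnnd1, which keeps cadherins at the membrane, read 12.37 and 12.41 in differentiated gallbladder organoids, 12.21 and 12.12 in gallbladder organoids, 12.17 and 12.51 in liver organoids, 12.10 and 11.98 in small intestine organoids, 11.81 and 11.74 in gallbladder tissue, 11.21 and 11.02 in liver tissue and 12.57 and 11.90 in small intestine tissue. Both were lowest in liver tissue, where the arrays overlapped with no other group. Liver organoids exceeded liver tissue by 1.64 ± 0.14 (SE, adjusted p = 7.61e-06) for Ctnna1 and by 1.23 ± 0.20 (SE, adjusted p = 0.000473) for Ctnnd1. In that comparison 5 of the 9 catenin genes were called, all higher in liver organoids, against 26.7% of all genes called higher: these 2, Ctnnb1, Jup and Ctnnal1. Ctnnal1, alpha-catulin, differed in its pattern and was highest in small intestine organoids at 9.76 and 9.88, against 8.90 and 8.29 in small intestine tissue (1.22 ± 0.20, SE, adjusted p = 0.000938). The neural Ctnna2 and Ctnnd2 and the cardiac Ctnna3 ranged over less than 1 log2 unit between groups.

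**Figure D4:**
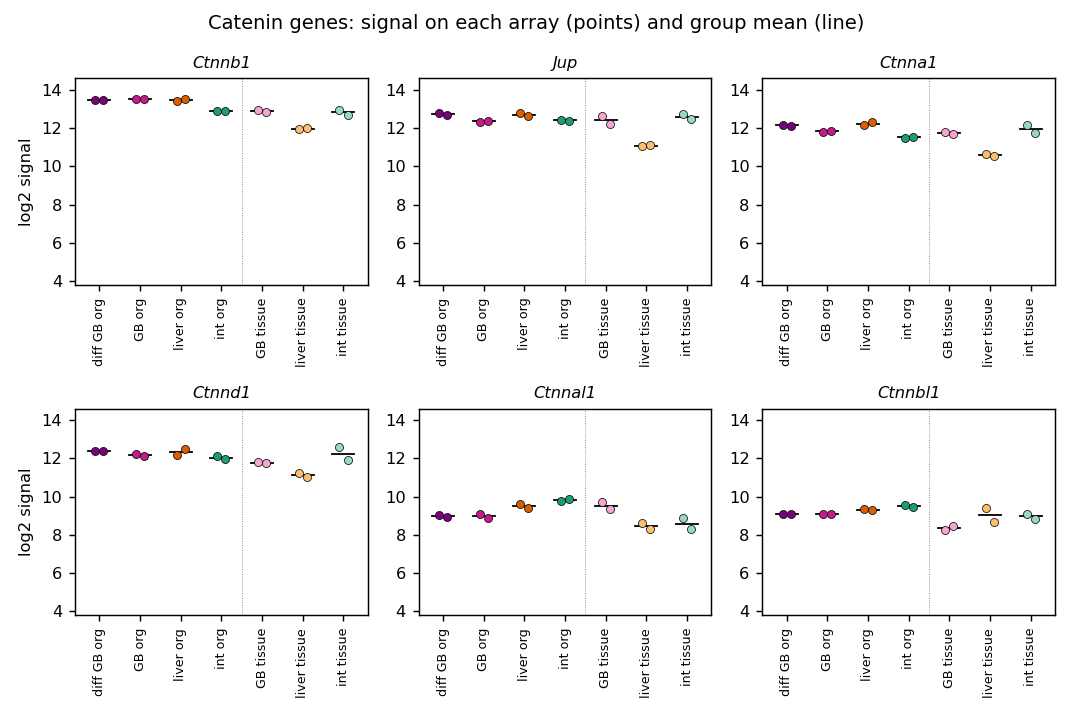
Log2 signal of 6 catenin genes on each array (points, 2 per group) with the group mean (line), for 4 organoid groups left of the dotted line and 3 tissues right of it. Ctnnb1, Jup, Ctnna1 and Ctnnd1 have their lowest group in liver tissue.

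Jup encodes plakoglobin, the catenin shared by adherens junctions and desmosomes. Its signal was 12.77 and 12.69 in differentiated gallbladder organoids, 12.31 and 12.39 in gallbladder organoids, 12.78 and 12.65 in organoids of the liver, and 12.45 and 12.36 in those of the small intestine. Signals in tissue were 12.65 and 12.24 in gallbladder tissue, 11.07 and 11.11 in liver tissue and 12.74 and 12.48 in small intestine tissue. Both liver tissue arrays were more than 1 log2 unit below every other array. Liver organoids exceeded liver tissue by 1.62 ± 0.14 (SE, adjusted p = 8.11e-06), gallbladder tissue exceeded liver tissue by 1.36 ± 0.14 (SE, adjusted p = 4.97e-05), and liver tissue differed from small intestine tissue by -1.52 ± 0.14 (SE, adjusted p = 1.62e-05). Withdrawal gave a difference of 0.38 ± 0.14 (SE, adjusted p = 0.204), not called.

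Dsp encodes desmoplakin, which ties the desmosome to keratin. Its signal was 11.35 and 11.50 in differentiated gallbladder organoids, 10.68 and 10.77 in gallbladder organoids, 12.27 and 12.51 in organoids of the liver, and 11.89 and 11.80 in those of the small intestine. On the tissue arrays it was 11.73 and 11.30 in gallbladder tissue, 9.23 and 9.95 in liver tissue and 12.16 and 11.16 in small intestine tissue. Gallbladder organoids were the lowest organoid group and liver tissue the lowest tissue. Liver organoids exceeded liver tissue by 2.80 ± 0.31 (SE, adjusted p = 4.12e-05), a 6.97-fold gap, and gallbladder tissue exceeded liver tissue by 1.93 ± 0.31 (SE, adjusted p = 0.000707). Gallbladder organoids differed from liver organoids by -1.67 ± 0.31 (SE, adjusted p = 0.00719), and the adjusted p was 0.0601 without gallbladder organoid replicate 1 and 0.0653 without liver organoid replicate 2. They differed from small intestine organoids by -1.12 ± 0.31 (SE, adjusted p = 0.018), and the adjusted p was 0.0687 to 0.0883 without any 1 of the 4 arrays compared. On withdrawal the difference was 0.70 ± 0.31 (SE, adjusted p = 0.298), not called, and it was called in a fit to those 4 arrays alone (0.00162). Set against gallbladder tissue, gallbladder organoids differed by -0.79 ± 0.31 (SE, adjusted p = 0.0586), not called. That difference was called in a fit to those 4 arrays alone (0.0346), without either small intestine tissue array (0.0157 each) and without either liver tissue array (0.0415 each).

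Promoter windows of Dsp, chr13:38151044-38151343 on the plus strand, and Jup, chr11:100397741-100398040 on the minus strand (GRCm38.p6, RefSeq), are shown because both genes were lowest in liver tissue. Capitals mark a match to CAGGTG, here at the bases from position 254 to 259 of the Dsp window:
Dsp: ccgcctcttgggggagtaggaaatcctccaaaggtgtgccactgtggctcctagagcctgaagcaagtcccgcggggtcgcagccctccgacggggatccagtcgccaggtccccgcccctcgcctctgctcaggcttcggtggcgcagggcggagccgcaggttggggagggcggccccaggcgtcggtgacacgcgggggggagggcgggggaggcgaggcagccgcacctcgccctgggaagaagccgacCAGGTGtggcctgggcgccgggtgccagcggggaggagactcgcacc
Jup: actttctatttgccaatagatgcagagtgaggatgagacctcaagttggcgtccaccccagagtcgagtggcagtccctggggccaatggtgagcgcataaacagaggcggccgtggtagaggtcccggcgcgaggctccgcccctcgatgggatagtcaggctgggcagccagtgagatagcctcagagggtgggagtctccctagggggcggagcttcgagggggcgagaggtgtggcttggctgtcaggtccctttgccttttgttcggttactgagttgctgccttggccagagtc
The Dsp window holds 1 CAGGTG, which begins 4 bases after the start, and the Jup window holds none of the 3 motifs. Both are richer in GC than the median window, at 73% for Dsp and 60.7% for Jup. Among known regulators of E-cadherin, 5 of 14 were higher and 4 of 14 lower in liver organoids than in liver tissue (against 26.7% and 18.2% of all genes). Esrp1, an epithelial splicing factor, read 11.52 and 11.56 in liver organoids, against 6.48 and 6.19 in liver tissue, and the Grainyhead-like factor Grhl2 read 9.90 and 10.11 in liver organoids, against 6.39 and 6.50 in liver tissue. The repressor Snai2 was lower in liver organoids by a difference of -3.55 ± 0.27 (SE, adjusted p = 3.5e-06). In the same comparison 6 of 6 fibroblast markers (median -1.38) and 6 of 6 endothelial markers (median -3.39) were lower in liver organoids, and their part in the differences of these regulators was not tested. A match in the letters is a description and was not tested as a binding site.

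Dsg3, the antigen of pemphigus vulgaris, is typical of the lower layers of stratified epithelia. Its signal was 9.32 and 9.01 in differentiated gallbladder organoids, 6.63 and 6.69 in gallbladder organoids, 7.86 and 7.54 in organoids of the liver, and 5.78 and 5.88 in those of the small intestine. In tissue it was 5.68 and 5.63 in gallbladder tissue, 6.07 and 6.00 in liver tissue and 5.79 and 5.77 in small intestine tissue. Differentiated gallbladder organoids were highest, liver organoids came next, and the tissues and small intestine organoids read 6.07 or less. On withdrawal it rose by 2.50 ± 0.13 (SE, adjusted p = 7.43e-06), which is 5.68-fold. Gallbladder organoids differed from liver organoids by -1.04 ± 0.13 (SE, adjusted p = 0.00095) and from gallbladder tissue by 1.00 ± 0.13 (SE, adjusted p = 0.000204), and liver organoids exceeded liver tissue by 1.66 ± 0.13 (SE, adjusted p = 4.45e-06) and small intestine organoids by 1.87 ± 0.13 (SE, adjusted p = 3.04e-06). Of 8 markers of squamous and basal epithelium, 1 rose on withdrawal (against 2.8% of all genes called higher), the keratin Krt4 at 8.77 and 8.90 in differentiated organoids, against 6.71 and 6.62 in gallbladder organoids. The mean of the 8 was 8.68 and 8.63 in differentiated organoids and 8.36 and 8.49 in gallbladder organoids. In liver organoids 6 of the 8 were higher than in liver tissue, with a median difference of 0.62, against 26.7% of all genes, and 3 of the 8 without liver organoid replicate 1. Involucrin, Ivl, a cornified envelope protein, read 12.35 and 11.86 in liver organoids, against 6.32 and 6.22 in liver tissue (5.84 ± 0.16, SE, adjusted p = 1.09e-08). Sprr1a, of the same envelope, read 13.53 and 12.78 in liver organoids, against 7.48 and 7.33 in liver tissue (5.75 ± 0.32, SE, adjusted p = 4.09e-07). In gallbladder organoids 5 of the 8 were higher than in gallbladder tissue (median 0.99, against 32.7% of all genes), and in liver organoids 5 of the 8 were higher than in small intestine organoids (median 0.58, against 14.2% of all genes), or 3 without liver organoid replicate 1 or either small intestine organoid array. The part of squamous differentiation in the differences of Dsg3 was not tested.

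Dsg2 is the desmoglein of simple epithelia. Its signal was 11.25 and 11.20 in differentiated gallbladder organoids, 10.79 and 10.87 in gallbladder organoids, 11.39 and 11.69 in organoids of the liver, and 11.04 and 11.03 in those of the small intestine. Tissue arrays read 10.79 and 10.90 in gallbladder tissue, 10.74 and 10.90 in liver tissue and 11.86 and 11.11 in small intestine tissue. All arrays lay between 10.74 and 11.86, and Dsg2 was called in 4 comparisons. Liver organoids exceeded liver tissue by 1.65-fold. Gallbladder tissue was 1.56-fold and liver tissue 1.59-fold below small intestine tissue, whose replicates lay apart. Gallbladder organoids were below liver organoids by a difference of -0.71 ± 0.20 (SE, adjusted p = 0.0462). That call was lost with each array centred on its median (0.0581), without either array of differentiated gallbladder organoids (0.0751 each), gallbladder organoids (0.208 and 0.166), small intestine organoids (0.0735 each), liver organoids (0.0835 and 0.279) or liver tissue (0.0515 each). Dsc2, its partner in simple epithelia, read 10.26 and 10.03 in differentiated gallbladder organoids, 9.78 and 9.68 in gallbladder organoids, 10.00 and 10.14 in organoids of the liver, and 11.07 and 11.07 in those of the small intestine. The tissues had 9.17 and 9.42 in gallbladder tissue, 9.35 and 10.13 in liver tissue and 11.42 and 11.17 in small intestine tissue. Small intestine was highest both in culture and in tissue. Set against small intestine organoids, gallbladder organoids differed by -1.34 ± 0.22 (SE, adjusted p = 0.000874), liver organoids differed from small intestine organoids by -1.0 ± 0.22 (SE, adjusted p = 0.00592), and gallbladder tissue differed from small intestine tissue by -2.00 ± 0.22 (SE, adjusted p = 4.95e-05). Dsc3, Dsg1b, Dsg1c and Dsg4, of stratified epithelium and hair, read between 4.80 and 6.32 on all arrays. Dsg1c was called 2.05-fold lower in gallbladder organoids than in gallbladder tissue (5.42 and 6.28). That call was lost without gallbladder tissue replicate 2, where the log2 difference was -0.61. Dsg1c was 1.74-fold lower in liver organoids than in liver tissue (5.42 and 6.20). Dsg4 was highest in small intestine tissue, at 6.32 and 6.15. A further probe set named Dsg1a, Dsg1b and Dsg1c together and was left out of the calls. It read 7.05 and 8.13 in gallbladder tissue and 6.75 and 7.32 in liver tissue, against 5.62 to 6.09 on the other arrays.

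The genes for the desmosomal cadherins lie in one row on chromosome 18 in the GRCm38.p6 annotation, where only protein-coding genes were considered. They run in the order Dsc3, Dsc2, Dsc1, Dsg1c, Dsg1a, Dsg1b, Dsg4, Dsg3 and Dsg2, with Cdh2 before the row and Ttr after it. Neighbours did not share one pattern, since Dsg4 stayed between 5.36 and 6.32, Dsg3 rose on withdrawal, and Dsg2 stayed between 10.74 and 11.86. Cdh3 and Cdh1 are also neighbours, and Cdh3 but not Cdh1 was low in both small intestine groups.

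**Figure D5:**
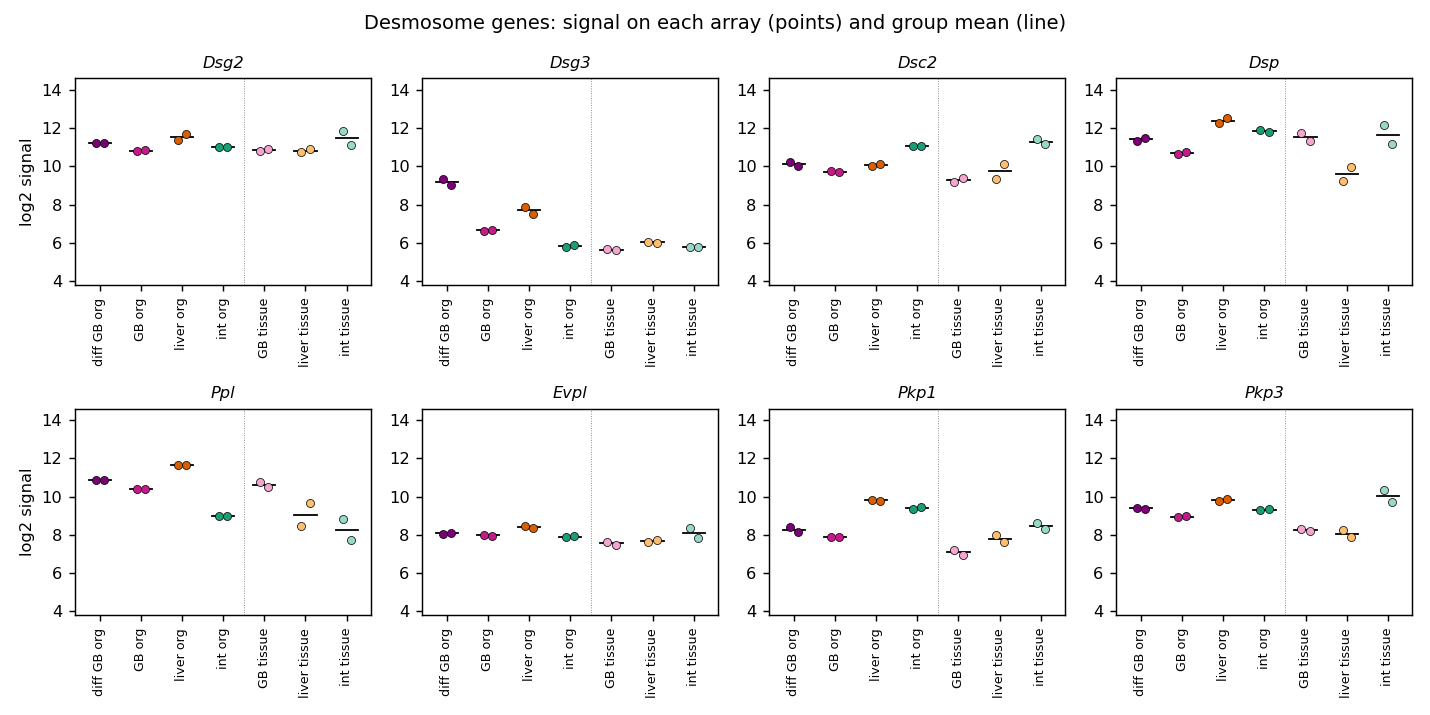
Log2 signal of 8 desmosome genes on each array (points, 2 per group) with the group mean (line), for 4 organoid groups left of the dotted line and 3 tissues right of it. Dsg3 is highest in differentiated gallbladder organoids, Dsc2 in small intestine organoids and tissue, and Dsp, Ppl and Pkp1 in liver organoids.

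Pkp1, a plakophilin best known from stratified epithelia, read 8.42 and 8.14 in differentiated gallbladder organoids, 7.87 and 7.89 in gallbladder organoids, 9.83 and 9.77 in organoids of the liver, and 9.38 and 9.48 in those of the small intestine. Signals in tissue were 7.20 and 6.97 in gallbladder tissue, 7.98 and 7.63 in liver tissue and 8.64 and 8.31 in small intestine tissue. Liver organoids were highest and gallbladder tissue lowest. Gallbladder organoids were below liver organoids with a difference of -1.92 ± 0.16 (SE, adjusted p = 6.75e-05) and below small intestine organoids with a difference of -1.55 ± 0.16 (SE, adjusted p = 4.01e-05). Organoids exceeded tissue in all 3 organs, by 0.79 ± 0.16 (SE, adjusted p = 0.00244) in gallbladder, 2.00 ± 0.16 (SE, adjusted p = 4.19e-06) in liver and 0.96 ± 0.16 (SE, adjusted p = 0.000927) in small intestine. The gain was larger in liver than in small intestine by 1.04 ± 0.22 (SE, adjusted p = 0.00453).

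Pkp3, a plakophilin of most epithelia, read 9.40 and 9.36 in differentiated gallbladder organoids, 8.93 and 8.96 in gallbladder organoids, 9.76 and 9.87 in organoids of the liver, and 9.30 and 9.34 in those of the small intestine. On the tissue arrays it was 8.31 and 8.20 in gallbladder tissue, 8.25 and 7.88 in liver tissue and 10.33 and 9.72 in small intestine tissue. Small intestine tissue and liver organoids were the highest groups. Liver organoids exceeded liver tissue by 1.75 ± 0.18 (SE, adjusted p = 2.89e-05), and gallbladder tissue was below small intestine tissue by a difference of -1.77 ± 0.18 (SE, adjusted p = 3.88e-05). Gallbladder organoids differed from liver organoids by -0.87 ± 0.18 (SE, adjusted p = 0.0133), and this call was lost without any 1 of the 4 arrays compared (adjusted p = 0.0566 to 0.0991). They exceeded gallbladder tissue by 0.69 ± 0.18 (SE, adjusted p = 0.0114), lost without gallbladder organoid replicate 2 (0.0589). Small intestine organoids differed from small intestine tissue by -0.71 ± 0.18 (SE, adjusted p = 0.0126), by -0.40 without small intestine tissue replicate 1 (0.0731). That call was also lost without small intestine organoid replicate 1 (0.066) or 2 (0.0556) and in a fit to those 4 arrays alone (0.0925).

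Pkp2, the plakophilin of simple epithelia and heart, read 10.15 and 10.22 in differentiated gallbladder organoids, 10.14 and 10.14 in gallbladder organoids, 10.34 and 10.65 in organoids of the liver, and 10.48 and 10.72 in those of the small intestine. In tissue it was 9.62 and 9.69 in gallbladder tissue, 10.16 and 9.88 in liver tissue and 10.26 and 9.72 in small intestine tissue. All its arrays lay between 9.62 and 10.72. Organoids were called higher than tissue for Pkp2 in gallbladder (1.4-fold) and small intestine (1.53-fold), but not in liver. Neither call held without replicate 2 of the tissue compared. The log2 difference was then 0.52 in gallbladder and 0.34 in small intestine. Ppl, periplakin, a linker of the cornified envelope, read 10.85 and 10.89 in differentiated gallbladder organoids, 10.39 and 10.42 in gallbladder organoids, 11.66 and 11.64 in organoids of the liver, and 8.99 and 9.0 in those of the small intestine. Tissue arrays read 10.75 and 10.50 in gallbladder tissue, 8.45 and 9.65 in liver tissue and 8.83 and 7.72 in small intestine tissue. Liver organoids were highest, gallbladder organoids and tissue followed, and small intestine and liver tissue were lower. Liver organoids exceeded small intestine organoids by 2.66 ± 0.38 (SE, adjusted p = 0.000455) and liver tissue by 2.60 ± 0.38 (SE, adjusted p = 0.000269), and gallbladder tissue exceeded small intestine tissue by 2.35 ± 0.38 (SE, adjusted p = 0.000709). Gallbladder organoids exceeded small intestine organoids by 1.42 ± 0.38 (SE, adjusted p = 0.0155), and the adjusted p was 0.067 to 0.075 without any 1 of the 4 arrays compared. Between gallbladder and liver organoids the difference of -1.24 ± 0.38 was not called (adjusted p = 0.0612). It was called in a fit to those 4 arrays alone (4.54e-05), without either small intestine tissue array (0.023 each) and without either liver tissue array (0.0194 each). Evpl, envoplakin, the partner of periplakin, read 8.48 and 8.38 in liver organoids, against 7.62 and 7.72 in liver tissue (0.76 ± 0.15, SE, adjusted p = 0.00222). Pkp4, found at adherens junctions and desmosomes, read 11.70 and 11.78 in liver organoids, against 10.16 and 11.41 in liver tissue, where the replicates lay far apart.

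Lists of partner genes were compared in the same way. Of 16 partners of adherens junctions 14 were higher and 2 lower in liver organoids than in liver tissue (median 1.47, against 26.7% and 18.2% of all genes and a median of 0.0046). Epcam, an epithelial adhesion molecule, read 12.34 and 12.41 in liver organoids, against 7.11 and 7.0 in liver tissue, a difference of 5.32 ± 0.19 (SE, adjusted p = 3.06e-08). Of 13 partners of desmosomes and hemidesmosomes 9 were higher and 2 lower (median 0.39), with the keratin Krt19 at 13.76 and 13.77 in liver organoids, against 7.29 and 7.41 in liver tissue, and the filament protein vimentin (Vim) lower by a difference of -3.60 ± 0.16 (adjusted p = 1.14e-07). Of 8 proteases and adaptors of cadherins 6 were higher and 1 lower (median 1.12), led by the protease Mmp7 at 6.56 ± 0.38 (adjusted p = 5.17e-07). Epcam and Krt19 are also on the epithelial marker list, and the part of cell makeup in these counts was not tested. In gallbladder organoids against gallbladder tissue the desmosome partners gave 5 higher and 4 lower of 13 (median 0.29, against 32.7% and 15.2% of all genes), with Des and Vim, of muscle and mesenchyme, lower by differences of -6.10 ± 0.17 (adjusted p = 9.21e-09) and -5.78 ± 0.16 (adjusted p = 9.21e-09). On withdrawal 1 of 16 adherens junction partners rose, Nectin3 at 1.09 ± 0.14 (adjusted p = 0.00163, with 2.8% of all genes called higher). That count was 3 without either small intestine tissue array and 2 without either liver tissue array.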

How the data were processed

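Gene expression was measured on 14 microarrays of 7 groups, with 2 arrays each, grouped by their titles. The values are log2 signals deposited by the authors, made with RMA per the submitters' processing notes, whose version is not given in the sources used here. Of 35556 probe sets, 21789 had 1 gene symbol, 1621 had several and 12146 were not listed. Gene numbers matched 21698 of the single-symbol probe sets to a RefSeq table, which changed 0 symbols. Each gene took its probe set with the highest mean, and 999 of 19938 genes had more than 1. All per-sample columns were used.

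The deposited log2 values of all genes and arrays were fitted in limma 3.58.1 (R 4.3.3) with 1 mean per group, empirical Bayes moderation and Benjamini-Hochberg adjustment over all genes. The fit had 7 residual degrees of freedom, 9.91 after moderation. The procedure was tested on simulated data in which a gene had the same spread in every group. It therefore could not show the effect of the wider spread in tissue. Values on every array are given for 13 core genes and for the 6 called genes that differed most in a comparison, and at most the 4 largest called genes are named from each partner list. The members and lists were chosen with earlier results of these data known. Alternatives were median centring of each array, leaving out the 40% of genes with the lowest mean, averaging probe sets, fitting the compared arrays alone, an intensity trend with robust fitting, a block for the replicate number, and a fit without each array. Signals of different probe sets were not compared. The number of arrays limits the precision.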

Additional observations from a re-analysis of the deposited data

Results flagged for a closer look

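An interaction term in limma showed that the difference between organoid and tissue was not the same in every organ. The 6 largest called values for each pair of organs are given here.

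Between gallbladder and liver, the change from tissue to organoid differed by -3.59 for Dsp (adjusted p = 0.000218), by -2.81 for Ppl (adjusted p = 0.00278), by -2.50 for Cdh11 (adjusted p = 2.62e-05), by -2.07 for Cdh1 (adjusted p = 0.000156) and by -1.72 for Jup (adjusted p = 0.000163), each more negative in gallbladder. For Cdh2 it differed by 3.32 (adjusted p = 0.0266). The Cdh2 value was 1.76 without gallbladder tissue replicate 1 and 4.88 without replicate 2. Its call was lost in a fit to the compared arrays alone (adjusted p = 0.0736), without either gallbladder organoid array (0.0662 and 0.0711), without either liver organoid array (0.0637 and 0.0723) and without liver tissue replicate 1 (0.0682).

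Between gallbladder and small intestine, the change was more positive in gallbladder by 7.14 for Cdh17 (adjusted p = 7.6e-08), 4.29 for Cdh6 (adjusted p = 1.09e-06), 3.69 for Cdh13 (adjusted p = 4.07e-06), 1.40 for Pkp3 (adjusted p = 0.00279) and 1.14 for Cdh24 (adjusted p = 0.000533). For Ctnnal1 it differed by -1.78 (adjusted p = 0.00127).

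Between liver and small intestine, the change was more positive in liver by 5.91 for Cdh17 (adjusted p = 6.77e-08), 4.87 for Cdh6 (adjusted p = 3.09e-07), 4.73 for Cdh13 (adjusted p = 4.39e-07), 2.62 for Dsp (adjusted p = 0.00107) and 2.46 for Pkp3 (adjusted p = 5.99e-05). For Cdh2 it differed by -4.72 (adjusted p = 0.00469).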

How the results depend on the processing

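Counts are genes called of the 45. Fitting the compared arrays alone gave 17 in differentiated against undifferentiated gallbladder organoids (against 26.8% of all genes in that fit), 20 between gallbladder and liver organoids (35.6%), 28 between gallbladder and small intestine organoids (58.7%) and 17 between liver and small intestine organoids (39.4%). It gave 10 between gallbladder and liver tissue (19.2%), 9 between gallbladder and small intestine tissue (16.2%) and 11 between liver and small intestine tissue (19.9%). The main fit shared a gene's spread over all groups, whereas these fits used only the groups compared. The pooled SD of all genes between replicates was 0.10 to 0.14 in organoids and 0.29 to 0.40 in tissue. The part of this in the changed counts was not tested. Without the 40% of genes of lowest mean signal, 23 of the 45 genes stayed, and the count was 1 on withdrawal, where Dsg3 was not tested, 12 for gallbladder organoids against tissue and 7 for small intestine organoids against tissue. Fewer genes were tested there. Leaving out each array gave 2 on withdrawal each time, 4 to 13 between gallbladder and liver organoids, 11 to 22 between gallbladder and small intestine organoids, 10 to 13 between liver and small intestine organoids, 11 to 24 for gallbladder, 16 to 23 for liver and 9 to 16 for small intestine organoids against tissue. Between tissues the ranges were 19 to 25 for gallbladder against liver, 11 to 20 for gallbladder against small intestine and 14 to 19 for liver against small intestine. For the interactions they were 18 to 26, 12 to 18 and 18 to 24. Of 208 called differences of single genes, 138 were called under every alternative that tested the gene, 31 of them of genes that were not tested without the dimmest genes, such as Dsg3, and 60 were lost with an array left out, and 0 changed sign while called. Replicate arrays were few, and a lone array left in a group was assumed to vary like the other groups.

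No pairing by replicate number was seen, since deviations of same-numbered arrays correlated between -0.10 and 0.11. With 2 arrays per group this cannot exclude that same-numbered arrays shared an animal or a batch. With the replicate block, the counts in the order of the comparisons above were 2, 8, 17, 11, 20, 22, 12, 24, 16 and 17, and 22, 14 and 21 for the interactions. With the numbers of the differentiated organoids crossed, chosen after seeing the data, the count was 2.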

Other observations

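Ttr, the transthyretin gene that follows Dsg2 among the protein-coding genes of chromosome 18, was looked at after its values were seen. Ttr is also on the list of hepatocyte markers. It read 12.52 and 12.47 in differentiated gallbladder organoids, against 10.15 and 10.45 in gallbladder organoids. It read 12.67 and 12.56 in liver organoids, 11.42 and 11.07 in small intestine organoids, 13.61 and 14.13 in gallbladder tissue, 14.23 and 14.34 in liver tissue, and 8.94 and 9.17 in small intestine tissue. No relation to its neighbours was tested.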
